A study of Mus musculus with 32 samples.

Results

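Gene expression in interscapular brown adipose tissue (iBAT), the fat pad between the shoulder blades that burns fatty acids for heat, was compared between the middle and the end of the light phase. Time is Zeitgeber time (ZT), with ZT0 at lights on. ZT6 lies in the middle of the light (inactive) phase of these nocturnal animals and ZT12 is the onset of darkness. The comparison took 8 of 32 RNA-sequencing libraries, 4 from ZT6 and 4 from ZT12, picked by the time point in their labels. Each library came from 1 male C57BL/6J mouse of 10 weeks. Per the study's methods the mice ate chow and drank freely, were not fasted before collection, lived below thermoneutrality and were killed at their time point, so that the libraries are from separate animals and no mouse was followed over time. No gene was altered and no agent was given in either group. In whole tissue, fewer cells of a type and less RNA per cell cannot be told apart.

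In most mammalian cells the clock is a loop of transcription. The activators CLOCK (or NPAS2) and ARNTL bind E-box elements and switch on the Period and Cryptochrome genes, whose proteins then return to block the activators. Side loops run through REV-ERB repressors (Nr1d1, Nr1d2), which act against ROR activators at Arntl, and through the D-box factors Dbp, Tef and Hlf, opposed by Nfil3. Glucocorticoid hormone, which in nocturnal rodents reaches its daily peak near the onset of darkness, also switches on a known set of genes, Per1 among them. Brown adipocytes take up fatty acids that lipoprotein lipase (LPL) releases from circulating lipoproteins, store them as triglyceride in droplets and release them again by lipolysis.

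Of the 19 clock genes listed, 16 had a promoter in the RefSeq table (GRCm38.p6), and 4 of those promoters are shown as examples that hold the binding elements named above and belong to genes that rose. Each is the 250 bases before the start site, written 5′ to 3′ on the gene's strand, with the E-box (CACGTG, its own reverse complement) or the D-box (TTATGTAA, searched on both strands) in capitals. Ciart, which encodes a repressor of CLOCK and ARNTL, had its E-boxes at first bases -116, -58 and -44 before the start (chr3:95882229-95882478, minus strand). Cry1 had 1 at -60 (chr10:85185055-85185304, minus strand), and Per1 had 1 at -166 in 1 of its 2 promoters (chr11:69098699-69098948, plus strand). Per3 held D-boxes at -205 and -158 (chr4:151044666-151044915, minus strand).
Ciart: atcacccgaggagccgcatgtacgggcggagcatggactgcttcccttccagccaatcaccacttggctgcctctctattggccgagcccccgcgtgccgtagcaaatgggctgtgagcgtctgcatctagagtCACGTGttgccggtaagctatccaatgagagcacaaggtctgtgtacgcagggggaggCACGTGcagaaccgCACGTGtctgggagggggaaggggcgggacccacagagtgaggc
Cry1: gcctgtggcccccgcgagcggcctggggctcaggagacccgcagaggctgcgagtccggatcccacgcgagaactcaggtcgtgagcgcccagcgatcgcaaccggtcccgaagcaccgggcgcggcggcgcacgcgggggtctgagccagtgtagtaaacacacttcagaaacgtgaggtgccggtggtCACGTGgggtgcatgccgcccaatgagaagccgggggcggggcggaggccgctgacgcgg
Per1: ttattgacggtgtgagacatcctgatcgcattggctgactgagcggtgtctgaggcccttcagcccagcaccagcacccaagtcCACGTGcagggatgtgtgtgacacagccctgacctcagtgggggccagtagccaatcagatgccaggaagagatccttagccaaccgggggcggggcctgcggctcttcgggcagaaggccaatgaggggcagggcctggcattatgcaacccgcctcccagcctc
Per3: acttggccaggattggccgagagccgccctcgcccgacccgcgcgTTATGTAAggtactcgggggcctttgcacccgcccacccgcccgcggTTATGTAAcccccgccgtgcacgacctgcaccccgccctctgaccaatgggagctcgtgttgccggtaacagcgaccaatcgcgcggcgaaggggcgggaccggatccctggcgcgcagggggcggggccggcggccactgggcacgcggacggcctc
The other E-boxes of the list stood in both promoters of Tef (-127 and -138), which also rose, and in that of Bhlhe41 (-153). An E-box was found in 6 of the 21 promoters of the clock list (28.6%, 5 of 16 genes), against 7.15% of all 32851 promoters and 9.57% of those of tested genes. D-boxes were rarer, at 0.938% of all promoters, and only Per3 held one among the listed clock genes with a promoter. These matches are descriptions of letters, counted over windows that run 250 bases before to 50 bases after the start.

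Total counts per library lay between 16300770 and 17623593 and no difference between ZT6 and ZT12 was detected (exact permutation test, two-sided, p = 0.686, where 4 against 4 mice can give no less than 0.0286). Mitochondrially encoded genes took 24.3% ± 2.52 of the counts at ZT6 and 23.2% ± 0.652 at ZT12 (SD, n = 4, exact permutation p = 0.543). All 13 brown adipocyte markers were detected and their summed level overlapped between the groups, 11616 to 15366 CPM (counts scaled to a common library total) at ZT6 and 12274 to 16621 at ZT12. In 3 libraries, replicate 2 of ZT6 and replicates 2 and 3 of ZT12, 15 skeletal muscle markers summed to 2166, 8237 and 2283 CPM, while the 5 others held 57.1 to 344 CPM. The first principal component of the 8 libraries, with 51.6% of the variance, followed these transcripts. None of the 15 muscle markers passed edgeR's test or DESeq2's, and 0 had an unadjusted p under 0.05, although their median log2 fold change was 2.35. Schwann cell markers summed to 161.6 to 181 CPM in the same 3 libraries and to 52.3 to 121 in the others. Sums for blood (451 to 906 CPM at ZT6, 413 to 584 at ZT12), lymphoid (13.3 to 16.9 and 14.5 to 19.3), macrophage (92.8 to 160 and 109.8 to 144) and fibroblast markers (95.8 to 179 and 112.5 to 179) overlapped. All libraries of ZT6 ran on sequencing lane 2 and all those of ZT12 on lane 3, so in this pair lane and time of day cannot be told apart.

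In total 1197 of 15505 tested genes differed between ZT6 and ZT12 (7.72%; edgeR's quasi-likelihood test, Benjamini-Hochberg (BH) adjusted p under 0.05). Of these, 562 (3.62% of the tested genes) were higher and 635 (4.1%) lower at ZT12. The changes were modest, with a median of 1.41-fold, and 165 genes passed 2-fold, 84 of them upward. In 1025 of the 1197 genes (6.61% of the tested genes; 485 higher, 540 lower) the mice of ZT6 and ZT12 did not overlap. Called or not, 13.8% of all tested genes showed no overlap. Against a change of at least 1.5-fold, 32 genes passed (0.206%). The total fell to 711 without replicate 1 of ZT6, to 765 without replicate 1 of ZT12 and to 720 without replicate 2 of ZT12, and 470 genes were called whichever of the 8 libraries was left out. Without the 3 libraries rich in muscle transcripts, an alternative chosen after the data were seen, 310 genes passed, 155 in each direction, of which 295 were among the 1197. Of this pair that fit kept replicates 1, 3 and 4 of ZT6 and replicates 1 and 4 of ZT12. With all libraries kept and the summed muscle markers as a covariate, added as late, 1112 genes passed, of which 1007 were among the 1197. Whether calls lost without the 3 libraries were lost through muscle transcripts or through fewer mice was not tested. A 24 h cosine with lane as an additive factor, the one model with lane that was fitted, gave 231 genes, of which 70 were called in the same direction by the direct comparison. Each lane holds neighbouring time points, so in that model lane can take up part of a daily rhythm, and the rest must follow 1 cosine. A difference that shrinks or turns sign in it therefore cannot be assigned to lane or to time. Of the genes named below as higher or lower, those 70 hold Per2, Per3, Clock, Npas2, Tsc22d3, Col4a1, Col4a2, Hspa8, Dnajb4, mt-Nd1, Dtx4, Tshr and Gm36595 and no other.

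**Figure D1:**
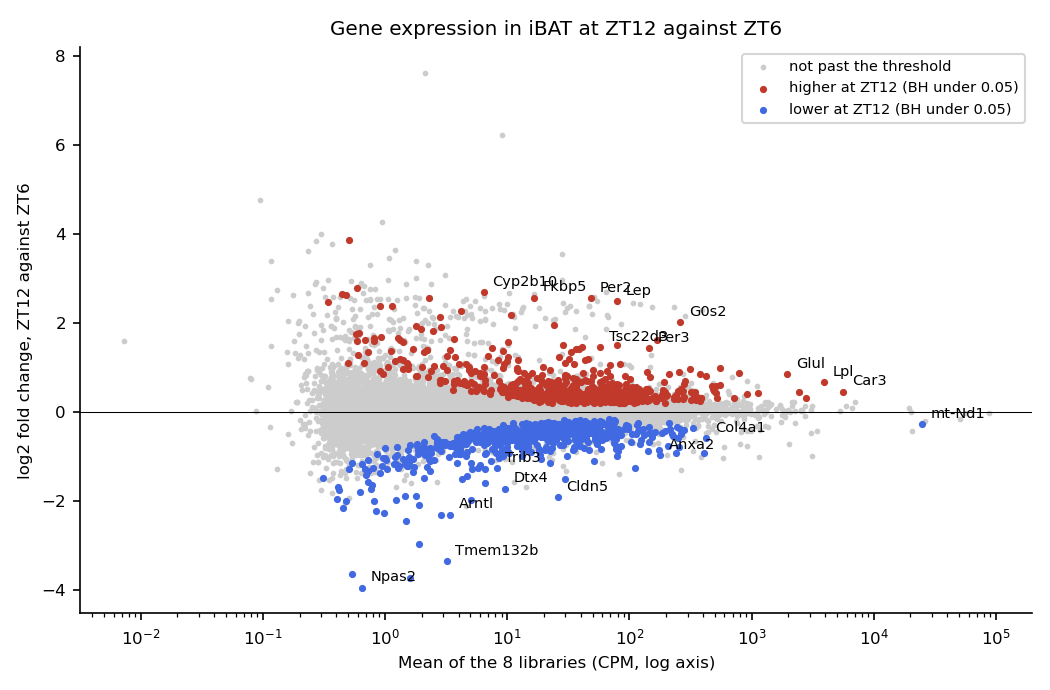
Each point is 1 of the 15505 tested genes, with its mean over the 8 libraries in CPM on a log axis and its log2 fold change, ZT12 against ZT6, on the vertical axis. Red points mark the 562 genes higher and blue points the 635 genes lower at ZT12, and most of them lie within 1 log2 unit of 0.

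ZT9 lies between the 2 time points and was sequenced on the same lane as ZT12, so whether its mice resembled those of ZT12 through time or through lane cannot be told apart. Of the 1197 genes, 1088 had their mean at ZT9 between those of ZT6 and ZT12, 96 had passed beyond the ZT12 level and 13 lay beyond the ZT6 level. Choosing genes that differ between ZT6 and ZT12 by itself favours a mean in between, and the share over all tested genes was not computed. For 865 genes (420 higher, 445 lower) the ZT9 mean was nearer to ZT12, and in the median gene it lay at 66.9% of the log2 distance from ZT6 to ZT12. Between ZT9 and ZT12 no gene passed edgeR's test at BH 0.05, with 1029 genes (6.64%) at an unadjusted p under 0.05, and between ZT6 and ZT9 307 genes (1.98%) passed. Over the 12 libraries of lane 2 and the 12 of lane 3, which also hold ZT0, ZT3 and ZT15, 40 of the 1197 genes showed no overlap (3.34%, against 0.284% of all tested genes). The mice of ZT6 and ZT12 are among those libraries, so a larger share among the called genes follows from how they were selected. Of the genes named below the 40 hold Arntl, Clock, Npas2, Per3, Tef, Hlf, Wee1, Lpl, Cidec, Ces1f, Pfkfb1 and Dtx4.

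Most genes of the clock changed. Of 19 listed clock genes, all tested, 11 were higher and 4 lower at ZT12, which is 78.9% of the list beside 7.72% of all tested genes, with a median log2 fold change of 0.58 against 0.01 over all tested genes. The Period genes, the negative limb of the loop, all rose. Per2 (ENSMUSG00000055866, chr1:91415982-91459324, GRCm38) was at 13.8, 14.7, 13.7 and 14.2 CPM in the 4 mice of ZT6 and at 76.5, 79.2, 84.6 and 92.5 CPM in those of ZT12. The groups lay far apart, and within each the mice were close together. Its log2 fold change was 2.56 (SE 0.24, adjusted p = 5.8e-07), and the mean at ZT9 was 50.0 CPM. Per3 (chr4:151003652-151044665) measured 101, 94.6, 68.5 and 49.6 CPM at ZT6 and 212, 214, 229 and 196 CPM at ZT12. Here the ZT6 mice were the more spread, and still none reached the ZT12 range. The log2 fold change of Per3 came to 1.44 (SE 0.19, adjusted p = 3.6e-05). For Per1 (chr11:69095217-69109960), which glucocorticoid also switches on, the ZT6 mice had 49.5, 54.9, 29.6 and 32.6 CPM and the ZT12 mice 112, 109, 140.1 and 112 CPM. The lowest ZT12 mouse thus stood well above the highest of ZT6, with a log2 fold change of 1.504 (SE 0.32, adjusted p = 0.0041).

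The other repressors of the loop were higher as well. Ciart (chr3:95878503-95882251), whose promoter carries the 3 E-boxes shown above, was at 5.31, 4.38, 3.59 and 2.28 CPM at ZT6 and at 19.5, 14.7, 22.3 and 14.7 CPM at ZT12. The ranges did not meet, and the log2 fold change was 2.19 (SE 0.27, adjusted p = 1.3e-05). Its level at ZT15 was already down to 5.27 ± 1.41 CPM (SD, n = 4). Cry1 (chr10:85131700-85185064) rose from 8.24, 10.5, 7.29 and 6.96 CPM to 13.0, 14.7, 18.0 and 17.5 CPM, again without overlap, a log2 fold change of 0.94 (SE 0.15, adjusted p = 0.00022). Its level was higher still at ZT18, 34.5 ± 3.75 CPM. Cry2 rose by 0.56 on the log2 scale, from 47.7 ± 6.40 to 70.2 ± 9.55 CPM (SD, n = 4, adjusted p = 0.0070).

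The activators went down. Arntl (ENSMUSG00000055116, chr7:113207465-113314126), the partner of CLOCK also known as Bmal1, stood at 5.25, 4.44, 5.22 and 7.97 CPM in the ZT6 mice and at 1.38, 0.988, 0.971 and 1.26 CPM in the ZT12 mice. Even the lowest ZT6 mouse was well above the highest ZT12 mouse, and the log2 fold change was -2.31 (SE 0.31, adjusted p = 4.1e-05). ZT9 was already at 1.24 ± 0.899 CPM, and the level of ZT0 was 34.4 ± 4.07 CPM (SD, n = 4). Clock itself fell from 62.4 ± 5.39 to 41.7 ± 2.23 CPM, a log2 fold change of -0.58 (SE 0.10, adjusted p = 0.00027). Npas2, which can take the place of CLOCK, fell from 1.13, 0.946, 1.51 and 1.34 CPM to 0.240, 0.0581, 0 and 0 CPM (adjusted p = 4.1e-05). At ZT12 2 of its libraries were at 0 and 1 was under the level of 3 counts (0.170 to 0.184 CPM per library), so no fold is given.

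In the side loops the REV-ERB genes went opposite ways. Nr1d1 measured 190.0, 247, 229.7 and 226 CPM at ZT6 and 154, 111, 117 and 114 CPM at ZT12. The mice of ZT12 were all lower, with a log2 fold change of -0.85 (SE 0.23, adjusted p = 0.020), and the call was lost without replicate 2 of ZT6 or replicate 2 of ZT12 (adjusted p from 0.054 to 0.067). Nr1d2 was instead higher at ZT12, 125, 151, 147 and 123 CPM against 108, 96.1, 84.5 and 78.3 CPM. Its log2 fold change of 0.57 (SE 0.18, adjusted p = 0.049997) sat at the threshold and was lost without any 1 of the 8 libraries (adjusted p from 0.053 to 0.13). Rora, a ROR activator, had 20.6 ± 3.34 CPM at ZT6 and 27.2 ± 3.26 CPM at ZT12 and did not pass (adjusted p = 0.051). Among the D-box factors, Tef rose from 215 ± 46.0 to 418 ± 13.7 CPM, a log2 fold change of 0.96 (SE 0.17, adjusted p = 0.00060), and Hlf from 45.3 ± 5.36 to 85.5 ± 8.98 CPM, 0.92 (SE 0.15, adjusted p = 0.00034). Their relative Dbp was at 104, 111, 67.8 and 47.5 CPM at ZT6 and at 108, 117, 151 and 118 CPM at ZT12. The mice overlapped and Dbp did not pass (adjusted p = 0.13), while its mean at ZT9 in between was 171 CPM. Nfil3, their opponent at the D-box, rose by 1.08 on the log2 scale, from 6.00 ± 2.99 to 12.7 ± 2.19 CPM (adjusted p = 0.011), and missed the threshold without replicate 1 of ZT6 (adjusted p = 0.052). Bhlhe40 and Bhlhe41, repressors at E-boxes, had adjusted p of 0.98 and 0.68. Wee1, a kinase that holds back mitosis and a known target of the clock, was the one gene of 21 tested on the cell cycle list to pass (4.76%, below the 7.72% of all tested genes), with 7.34, 7.45, 6.28 and 3.23 CPM at ZT6 and 12.4, 13.8, 16.4 and 14.2 CPM at ZT12. All ZT12 mice were above those of ZT6, a log2 fold change of 1.23 (SE 0.19, adjusted p = 0.00012), against 0.33 and no call with the cosine beside lane. Without the 3 libraries rich in muscle transcripts, 6 clock genes were higher (Per1, Per2, Per3, Ciart, Cry1 and Tef) and 3 lower (Arntl, Clock and Npas2), and with the cosine beside lane 2 were higher (Per2 and Per3) and 2 lower (Clock and Npas2). That model gave smaller differences, not called, for Per1 (0.20), Ciart (0.24), Cry1 (0.32) and Arntl (-0.64).

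**Figure D2:**
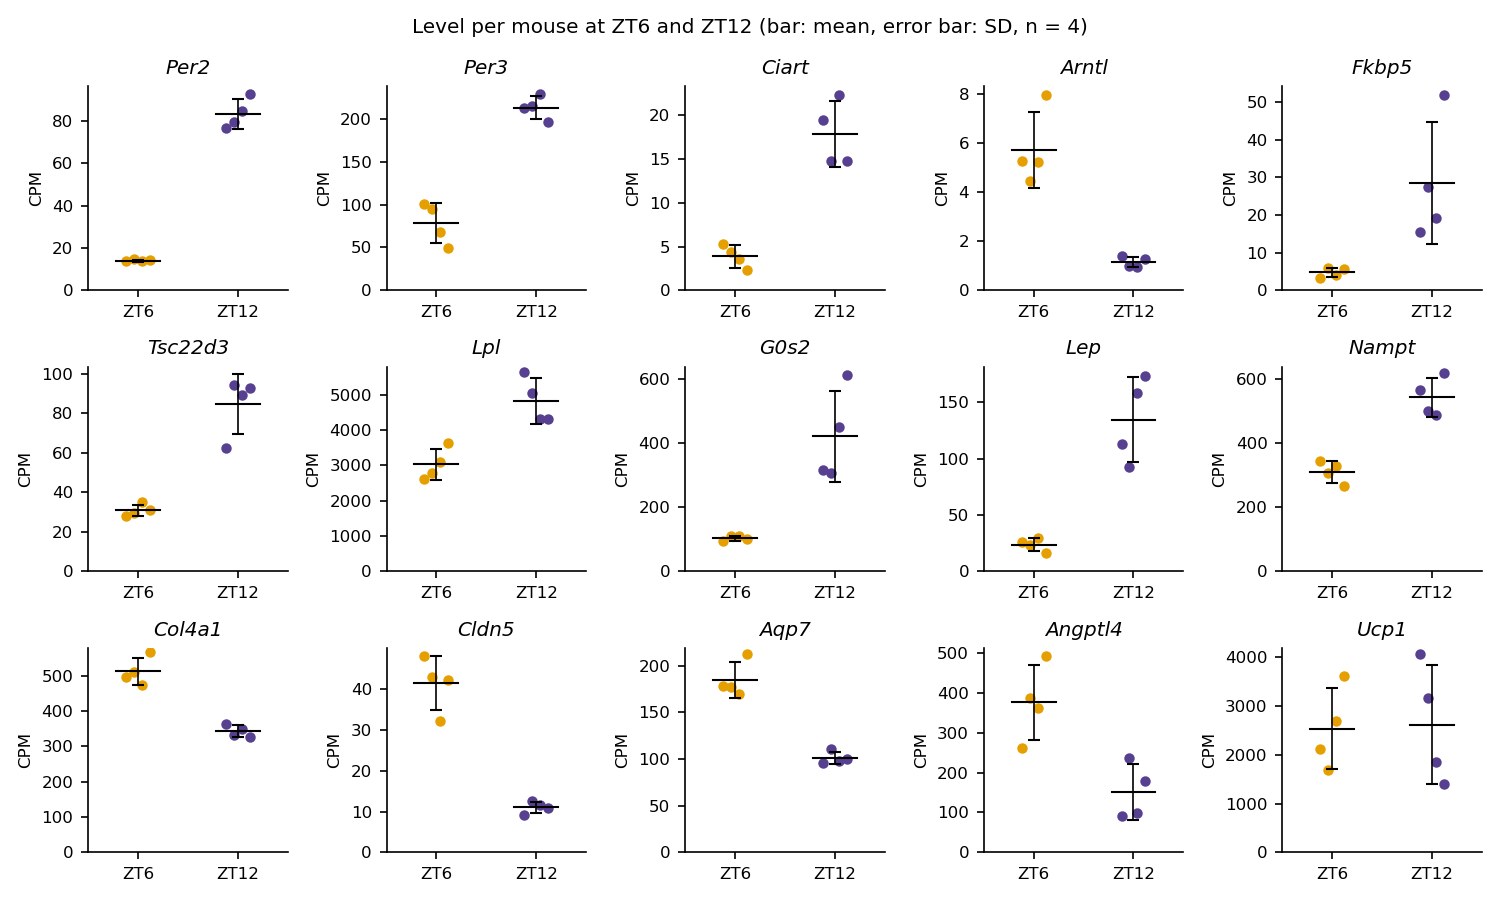
Each point is 1 mouse, in CPM on a linear axis from 0, with the mean as a bar and the SD as an error bar (n = 4 per time point) for 15 genes. The 4 mice of ZT6 and the 4 of ZT12 are apart for every gene plotted but Ucp1, where the 2 time points cover the same range.

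The list of glucocorticoid targets had 10 of 19 tested genes higher at ZT12 (52.6%, beside 3.62% of all tested genes). No member was lower by edgeR's test or by DESeq2, 1 was lower at an unadjusted p under 0.05, and the median log2 fold change was 0.54. Fkbp5 (ENSMUSG00000024222, chr17:28399094-28517527), which encodes a chaperone that dampens the glucocorticoid receptor, had 3.40, 5.91, 4.04 and 5.79 CPM at ZT6 and 15.6, 27.3, 19.3 and 51.8 CPM at ZT12. The ZT12 mice were widely spread, with replicate 4 the highest, but all lay above ZT6. The log2 fold change was 2.57 (SE 0.39, adjusted p = 0.00014), most of it after ZT9, when the mean was 8.81 CPM. Tsc22d3 (chrX:140539528-140600659), which encodes the glucocorticoid-induced leucine zipper, was at 28.1, 29.3, 34.9 and 31.1 CPM at ZT6 and at 62.2, 94.4, 88.9 and 92.8 CPM at ZT12. Replicate 1 was the lowest of ZT12 and still above every ZT6 mouse, and the log2 fold change was 1.45 (SE 0.17, adjusted p = 1.2e-05). Zbtb16, which encodes the zinc finger factor PLZF, went from 4.36, 7.51, 11.4 and 16.3 CPM to 23.6, 29.2, 33.2 and 67.4 CPM. Both groups were wide but did not overlap, and the log2 fold change of 1.95 (SE 0.51, adjusted p = 0.019) lost its call without replicate 1 or 2 of ZT6 or replicate 4 of ZT12 (adjusted p from 0.061 to 0.077). Klf9, a Kruppel-like factor, rose by 0.56 on the log2 scale, from 85.4 ± 2.70 to 126 ± 13.8 CPM (adjusted p = 0.0012).

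The remaining members of the glucocorticoid list that rose include Glul, the enzyme that makes glutamine, with 1362, 1539, 1417 and 1303 CPM at ZT6 and 2548, 2650.0, 2471 and 2462 CPM at ZT12. The mice of a time point were tightly grouped, and the log2 fold change was 0.85 (SE 0.14, adjusted p = 0.00021). Ddit4, an inhibitor of mTOR signalling, rose by 1.11 on the log2 scale (adjusted p = 0.0086), and Nfkbia, which encodes an inhibitor of NF-kB, by 0.71 (adjusted p = 0.0067). Nr3c1, the gene of the glucocorticoid receptor, rose from 112 ± 12.2 to 141 ± 14.2 CPM (log2 fold change 0.33, SE 0.09, adjusted p = 0.018), with overlapping mice, and this call was lost without replicate 1 or 2 of ZT6 or replicate 1 or 2 of ZT12 (adjusted p from 0.061 to 0.083). The sulfotransferase gene Sult1a1 rose by 0.49 (adjusted p = 0.029), a call lost without any 1 library other than replicate 2 of ZT6 and replicate 1 of ZT12 (adjusted p from 0.0506 to 0.11). Other well-known targets did not pass, with log2 fold changes of 0.52 (SE 0.25, adjusted p = 0.23) for Sgk1, -0.12 (SE 0.57, adjusted p = 0.93) for Dusp1 and -1.08 (SE 0.44, adjusted p = 0.14) for Mt2. Without the 3 libraries rich in muscle transcripts 5 of the 10 were called, Fkbp5, Tsc22d3, Per1, Klf9 and Glul, and with the cosine beside lane Tsc22d3 alone was. In that cosine the log2 difference was 1.08 for Fkbp5, and it had the other sign for Zbtb16 (-2.02), Klf9 (-0.44) and Ddit4 (-0.045).

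The study asked about uptake of fatty acids from lipoproteins. Lpl (ENSMUSG00000015568, chr8:68880491-68907448), which encodes the lipase that releases them, was higher at ZT12, with 2615, 2779, 3090.0 and 3622 CPM at ZT6 and 5629, 5047, 4299 and 4299 CPM at ZT12. Every ZT12 mouse exceeded every ZT6 mouse, and the log2 fold change was 0.67 (SE 0.12, adjusted p = 0.00071). With the cosine beside lane the log2 difference was 0.12 and was not called. At ZT9 the level was already 4691 ± 628 CPM (SD, n = 4), and all 12 libraries of lane 3 were above the 12 of lane 2. Lpl was the one of 17 tested genes of the LPL pathway list to pass (5.88%, near the 7.72% of all tested genes), and the median log2 fold change of that list was 0.13. Angptl4 (chr17:33773750-33781830), whose product inactivates LPL, had 261, 388, 362 and 492 CPM at ZT6 and 91.2, 236, 98.0 and 179 CPM at ZT12. The mice did not overlap, with those of ZT12 the lower, but both groups were wide, and Angptl4 did not pass (log2 fold change -1.31, SE 0.47, adjusted p = 0.087). Values for Cd36, a fatty acid transporter, and Gpihbp1, which anchors LPL to the capillary wall, were 0.05 (SE 0.07, adjusted p = 0.75) and 0.05 (SE 0.11, adjusted p = 0.85) on the log2 scale. The lipoprotein receptor gene Vldlr stood at 0.21 (SE 0.11, adjusted p = 0.29).

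Of the genes that release fatty acids from droplets, the lipolysis list, 4 of 12 were higher and 1 was lower (41.7% in all, beside 7.72% of all tested genes), with a median log2 fold change of 0.30. G0s2 (chr1:193272161-193273217), whose product inhibits the triglyceride lipase ATGL, was at 94.4, 109, 111 and 99.5 CPM at ZT6 and at 316, 308, 448 and 611 CPM at ZT12. The ZT6 mice were nearly level and the ZT12 mice varied widely above them, a log2 fold change of 2.02 (SE 0.35, adjusted p = 0.00078). Pnpla2 (chr7:141455198-141460743), which encodes ATGL itself, rose less but evenly, from 2327, 2593, 2511 and 2549 CPM to 3216, 3017, 3141 and 3112 CPM. The ranges did not overlap, and the log2 fold change was 0.32 (SE 0.06, adjusted p = 0.00092). The carboxylesterase genes Ces1d and Ces1f, which belong to a family of similar sequences whose reads can be shared, rose by 0.44 and 0.58 on the log2 scale (adjusted p = 0.00052 and 0.0072).

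Aqp7 (chr4:41033074-41048139), the channel that lets glycerol out of adipocytes, was the member that fell. It had 179, 177, 169.6 and 213 CPM at ZT6 and 96.1, 111, 97.7 and 99.8 CPM at ZT12, with no overlap and a log2 fold change of -0.87 (SE 0.11, adjusted p = 1.5e-05). The hormone-sensitive lipase gene Lipe (-0.10, SE 0.13, adjusted p = 0.70 on the log2 scale) and the monoglyceride lipase gene Mgll (0.29, SE 0.15, adjusted p = 0.28) did not pass. Without the libraries rich in muscle transcripts 3 members were higher and 1 lower. With the cosine beside lane G0s2 (0.48), Pnpla2 (0.023) and Aqp7 (-0.63) were not called.

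Of 20 genes for triglyceride synthesis and droplets 2 were higher, a share (10%) near the 7.72% of all tested genes. Cidec (chr6:113424634-113435760), a droplet protein that promotes large droplets, went from 440.1, 529.7, 594 and 689 CPM to 1186, 1039.7, 955 and 935 CPM. The groups were clear of each other, a log2 fold change of 0.87 (SE 0.13, adjusted p = 0.00014), against 0.47 and no call with the cosine beside lane, and at ZT9 the level was 884 ± 46.7 CPM. Dgat2, which catalyses the last step of triglyceride synthesis, rose from 2060.2 ± 179 to 2813 ± 264 CPM (log2 fold change 0.45, SE 0.13, adjusted p = 0.028), a call lost without replicate 1 or 2 of ZT6 or replicate 3 or 4 of ZT12 (adjusted p from 0.069 to 0.089). The droplet coat genes Plin1 (-0.03), Plin2 (-0.21) and Plin5 (0.24 on the log2 scale) did not pass, with adjusted p of 0.89, 0.77 and 0.21. No gene of 29 for fatty acid oxidation passed edgeR's test, 3 had an unadjusted p under 0.05, DESeq2's Wald test called 1 lower, and the median log2 fold change was 0.06. Acsl1, which activates fatty acids for either fate, had a log2 fold change of 0.22 (SE 0.16, adjusted p = 0.43).

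Among 16 tested genes of secreted factors 4 were higher and 1 lower (31.2% in all, beside 7.72% of all tested genes), and 2 and 1 without the libraries rich in muscle transcripts. Lep (ENSMUSG00000059201, chr6:29060220-29073877), which encodes the satiety hormone leptin, was at 26.0, 23.1, 29.9 and 16.2 CPM at ZT6 and at 113, 93.0, 158 and 173 CPM at ZT12. The lowest ZT12 mouse was far above the highest of ZT6, and the log2 fold change was 2.50 (SE 0.48, adjusted p = 0.0018), against 0.57 and no call with the cosine beside lane. At ZT9 the mice ranged widely, 113 ± 83.9 CPM (SD, n = 4). Of 8 white adipocyte markers, on which Lep itself stands, 5 had a count, and Wt1, Tcf21 and Hoxc10 were at 0 in all 8 libraries. Their sum, Lep included, of 105.5 to 136 CPM at ZT6 and 199 to 291 CPM at ZT12 did not overlap. Lep made up 93.0 of the 199 CPM in replicate 2 of ZT12 and 26.0 of the 136 CPM in replicate 1 of ZT6, so without Lep the groups overlapped. Retn (0.58, SE 0.33, adjusted p = 0.31), Agt (1.08, SE 0.45, adjusted p = 0.14) and Npr3 (0.38, SE 0.29, adjusted p = 0.48 on the log2 scale) did not pass.

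Nampt (chr12:32819545-32853349), which encodes the enzyme that sets the pace of NAD salvage and is also secreted, rose from 344, 306, 327 and 265 CPM to 564, 499, 485 and 618 CPM. All ZT12 mice were higher, and the log2 fold change was 0.80 (SE 0.12, adjusted p = 0.00014). The level kept on to 649 ± 52.6 CPM at ZT18. Nrg4, a factor that brown fat releases, rose by 0.35 on the log2 scale (adjusted p = 0.016), a call lost without replicate 3 or 4 of ZT6 (adjusted p from 0.055 to 0.065). Vegfb, a relative of the vascular growth factor, rose by 0.26 (adjusted p = 0.042), lost without any 1 library other than replicate 4 of ZT6 (adjusted p from 0.059 to 0.18). Fgf9, a growth factor gene near the limit of detection, fell from 1.37, 1.24, 1.40 and 1.23 CPM to 0.0601, 0.407, 0.546 and 0.274 CPM. No ZT12 mouse reached the ZT6 values, and its adjusted p was 0.0096. Adiponectin (Adipoq) did not pass (0.24, SE 0.10, adjusted p = 0.13 on the log2 scale).

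The heat-producing genes and the routes of glucose changed in few members. Ucp1 (ENSMUSG00000031710, chr8:83290352-83298452), which encodes the uncoupling protein that defines brown fat, had 2128, 1701, 2706 and 3622 CPM at ZT6 and 4061, 3166, 1860.0 and 1399 CPM at ZT12. The groups covered the same range, with the highest and the lowest mouse both at ZT12, and the log2 fold change was 0.05 (SE 0.29, adjusted p = 0.95), with a sign that turned without replicate 1 or 2 of ZT6 or replicate 1 or 2 of ZT12. Of 20 tested genes of the thermogenic list Esrrg, a nuclear receptor of mitochondrial genes, alone passed. It had 22.6, 28.3, 28.5 and 28.9 CPM at ZT6 and 44.4, 37.8, 35.7 and 32.2 CPM at ZT12, ZT12 being the higher without overlap. Its log2 fold change of 0.47 (SE 0.15, adjusted p = 0.049997) sat at the threshold and lost its call without any 1 library other than replicate 4 of ZT12 (adjusted p from 0.060 to 0.18), and the cosine beside lane gave the other sign (-0.28). The log2 fold changes of Dio2, which activates thyroid hormone, and Ppargc1a, a coactivator of mitochondrial genes, were 0.81 (SE 0.71, adjusted p = 0.55) and -0.42 (SE 0.28, adjusted p = 0.40).

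In lipogenesis Srebf1 (chr11:60199089-60222581), the sterol and lipid regulator, was the 1 of 15 genes to pass, rising from 424, 479, 360.0 and 231 CPM to 885, 604, 648 and 816 CPM. All ZT12 mice were above ZT6, with a log2 fold change of 0.98 (SE 0.23, adjusted p = 0.0087). No enzyme of the same list passed. Acly, Acaca and Fasn stood at -0.98 (SE 0.54, adjusted p = 0.30), -0.71 (SE 0.45, adjusted p = 0.38) and -0.43 (SE 0.51, adjusted p = 0.67) on the log2 scale, and the median of the list was -0.43. Of 31 genes of glucose uptake and glycolysis 1 was higher and 2 were lower. Pfkfb3, whose product stimulates glycolysis, was at 576, 549.6, 538 and 457 CPM at ZT6 and at 303, 219.8, 248 and 348 CPM at ZT12. The mice of ZT12 were all lower (log2 fold change -0.92, SE 0.26, adjusted p = 0.030), although the call was lost without any 1 library other than replicate 4 of ZT6 and replicate 4 of ZT12 (adjusted p from 0.058 to 0.10). Pfkp, a phosphofructokinase, fell by 0.76 (SE 0.20, adjusted p = 0.020) on the log2 scale with overlapping mice, and was lost without replicate 1 of ZT6 or replicate 2 or 3 of ZT12 (adjusted p from 0.055 to 0.11). Pfkfb1 rose from 54.9 ± 5.18 to 73.8 ± 1.88 CPM (log2 fold change 0.43, SE 0.11, adjusted p = 0.015) and was lost without replicate 3 of ZT6 (adjusted p = 0.061). Neither the glucose transporter gene Slc2a4 (0.15, SE 0.19, adjusted p = 0.69) nor the pyruvate dehydrogenase kinase gene Pdk4 (-1.02, SE 0.36, adjusted p = 0.082 on the log2 scale) passed. None of the 3 calls in this list held without the libraries rich in muscle transcripts. With the summed muscle markers as a covariate all 3 held (adjusted p from 0.029 to 0.047).

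From the insulin and fasting list of 20 genes, Akt1, the kinase downstream of the insulin receptor, rose from 74.3, 75.6, 87.9 and 104 CPM to 124, 117, 121 and 120.2 CPM. Foxo1, the factor that AKT keeps out of the nucleus, rose from 57.5, 58.4, 76.2 and 70.2 CPM to 97.5, 103, 98.4 and 98.7 CPM. In both genes the ZT12 mice were nearly level and above all ZT6 mice, with log2 fold changes of 0.49 (SE 0.10, adjusted p = 0.0013) and 0.60 (SE 0.13, adjusted p = 0.0037). Without the libraries rich in muscle transcripts their adjusted p were 0.051 and 0.11, and in the cosine beside lane their log2 differences were -0.11 and -0.20. The shares called in the thermogenic (5%), lipogenesis (6.67%), glucose (9.68%) and insulin and fasting (10%) lists were near the 7.72% of all tested genes.

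Of 29 tested genes of the extracellular matrix 4 were lower and 1 was higher (17.2% in all, beside 7.72% of all tested genes), with a median log2 fold change of -0.06, and the lower ones encode collagens and a laminin. Col4a1 (ENSMUSG00000031502, chr8:11198423-11312826), a chain of the type IV collagen that underlies vessels and adipocytes, was at 497, 511, 475 and 567 CPM at ZT6 and at 364, 332, 349.7 and 327 CPM at ZT12. The groups were well apart and the log2 fold change was -0.58 (SE 0.08, adjusted p = 7.9e-05). Col4a2, the chain encoded head to head with it, had 294, 288, 289.8 and 361 CPM at ZT6 and 236, 211, 222 and 209 CPM at ZT12. It was likewise lower in every ZT12 mouse, with a log2 fold change of -0.49 (SE 0.09, adjusted p = 0.00067). Lamb1, a laminin chain, fell from 152 ± 19.7 to 92.8 ± 15.0 CPM (log2 fold change -0.72, SE 0.19, adjusted p = 0.016), lost without replicate 3 of ZT6 or replicate 1 or 2 of ZT12 (adjusted p from 0.052 to 0.059). Col15a1, a collagen at the edge of the basement membrane, fell by 0.55 (SE 0.17, adjusted p = 0.042) and was lost without any 1 library other than replicate 4 of ZT12 (adjusted p from 0.052 to 0.12). Timp3, an inhibitor of matrix proteases, was the matrix gene that rose, from 220.0, 235, 202 and 214 CPM to 281, 350.2, 393 and 377 CPM. All ZT12 mice were higher, a log2 fold change of 0.69 (SE 0.14, adjusted p = 0.0026). Without the libraries rich in muscle transcripts 3 were lower, and Timp3 had an adjusted p of 0.073. The cosine beside lane called Col4a1 (-0.44) and Col4a2 (-0.44).

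Cldn5 (chr16:18776847-18778262), the claudin that seals the junctions between endothelial cells, was among the genes with the largest falls. Its 4 mice of ZT6 had 48.0, 42.9, 32.2 and 42.2 CPM and those of ZT12 9.13, 12.5, 11.6 and 10.8 CPM. The highest ZT12 mouse was far below the lowest of ZT6, and the log2 fold change was -1.91 (SE 0.32, adjusted p = 0.00046), with 15.0 ± 4.44 CPM (SD, n = 4) reached at ZT9. Of 9 endothelial markers, Kdr, the receptor of vascular growth factor, fell from 245, 239, 263 and 320.4 CPM to 198, 181, 174 and 184 CPM, with no overlap and a log2 fold change of -0.53 (SE 0.09, adjusted p = 0.00021). Cdh5, the cadherin of endothelial junctions, fell by 0.33 (SE 0.10, adjusted p = 0.030) and was lost without replicate 3 or 4 of ZT6 or replicate 1, 2 or 4 of ZT12 (adjusted p from 0.061 to 0.11). Emcn, a sialomucin of capillaries and veins, rose instead by 0.34 (SE 0.09, adjusted p = 0.018) with overlapping mice, lost without replicate 1, 2 or 3 of ZT6 or replicate 2 of ZT12 (adjusted p from 0.057 to 0.072). Kdr was the 1 endothelial marker called without the libraries rich in muscle transcripts, and in the cosine beside lane Kdr (0.18) and Cdh5 (0.026) had the other sign. The difference of Cldn5 was -0.0098 in that cosine and was not called. The summed level of the 9 markers, all detected, was 1076 to 1392 CPM at ZT6 and 980.2 to 1103 CPM at ZT12, so the sums overlapped, and its part in the falls of vessel genes was not tested.

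Some genes of stress and protein folding passed. Hspa8 (chr9:40800984-40810087), the constitutive HSP70 chaperone, went from 151, 194, 174 and 194 CPM to 359, 389, 266 and 325 CPM, a rise without overlap and a log2 fold change of 0.91 (SE 0.19, adjusted p = 0.0025). It led the 3 of 24 heat-shock genes that were higher, with none lower (12.5% called, beside 7.72% of all tested genes). The co-chaperone genes Dnajb4 and Dnaja4 rose by 0.33 and 0.50 (adjusted p = 0.011 and 0.042), and Dnaja4 was lost without any 1 library other than replicate 1 of ZT12 (adjusted p from 0.058 to 0.11). On the list of the endoplasmic reticulum and its stress response 3 of 25 genes were lower and 1 higher (16%, beside 7.72% of all tested genes). Trib3, a pseudokinase of the stress and starvation response, had 11.2, 10.8, 14.0 and 10.6 CPM at ZT6 and 3.72, 5.87, 5.40 and 4.38 CPM at ZT12. It was lower in every ZT12 mouse, with a log2 fold change of -1.26 (SE 0.21, adjusted p = 0.00026). The chaperone genes Hyou1 and Creld2 fell by 0.24 (SE 0.06, adjusted p = 0.0091) and 0.60 (SE 0.14, adjusted p = 0.0070). Chac1, an enzyme that degrades glutathione, was higher (1.38, 10.6, 2.31 and 4.16 CPM against 1.25, 1.60, 0.673 and 0.668 CPM). Replicate 2 of ZT12 was by far the highest mouse, and the log2 fold change of 2.14 (SE 0.61, adjusted p = 0.029) was lost without replicate 1, 3 or 4 of ZT6 or replicate 2 of ZT12 (adjusted p from 0.063 to 0.21). Without the libraries rich in muscle transcripts Hspa8 and Trib3 were called on these lists and no other member was.

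In amino acid metabolism 3 of 23 genes were higher (13%, beside 7.72% of all tested genes), Glul described above, Ivd, an enzyme of leucine breakdown (0.33, SE 0.08, adjusted p = 0.0088 on the log2 scale), and the glutamine carrier gene Slc1a5 (0.39, SE 0.12, adjusted p = 0.036), lost without replicate 3 or 4 of ZT6 or replicate 1 or 4 of ZT12 (adjusted p from 0.086 to 0.11). In cholesterol synthesis Msmo1 was higher (0.77, SE 0.23, adjusted p = 0.041) and lost without any 1 library other than replicate 3 of ZT12 (adjusted p from 0.051 to 0.16), while Dhcr7, which acts later in the path, was lower (-0.59, SE 0.13, adjusted p = 0.0065), of 22 tested (9.09%). Ppox of haem synthesis fell by 0.27 (SE 0.08, adjusted p = 0.031), 1 of 12 genes (8.33%), and was lost without replicate 2, 3 or 4 of ZT6 or replicate 1 or 2 of ZT12 (adjusted p from 0.053 to 0.11). Of these genes Glul and Slc1a5 were called without the libraries rich in muscle transcripts.

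Of the large sets of housekeeping genes few members passed, each share below or near the 7.72% of all tested genes (0% to 2.47% in the nuclear-encoded sets, 6.67% in the mitochondrially encoded genes). None of 81 nuclear-encoded respiratory chain genes passed edgeR's test or DESeq2's, with 2 at an unadjusted p under 0.05, and Atp5b stood at 0.03 (SE 0.06, adjusted p = 0.82) on the log2 scale. None of 37 proteasome genes passed either test, with 3 at an unadjusted p under 0.05, and Psmd8 stood at -0.02 (SE 0.06, adjusted p = 0.84). Of 15 mitochondrially encoded genes mt-Nd1, a subunit of complex I, fell from 26695, 25981, 27341 and 28783 CPM to 24939.9, 23272, 21522 and 20702 CPM. The ZT12 mice were all lower, with a log2 fold change of -0.27 (SE 0.08, adjusted p = 0.035), a call lost without any 1 library other than replicate 2 of ZT6 and replicate 1 of ZT12 (adjusted p from 0.062 to 0.097). Of 77 mitochondrial ribosome genes Mrps18a was higher, with a log2 fold change of 0.39 (SE 0.12, adjusted p = 0.042), lost without any 1 library other than replicate 4 of ZT6 (adjusted p from 0.0504 to 0.17). Of 81 cytosolic ribosome genes Rpl3 and Rps18, whose reads can be shared with processed copies, rose by 0.28 (SE 0.08, adjusted p = 0.034) and 0.26 (SE 0.08, adjusted p = 0.042) on the log2 scale. Rpl3 was lost without any 1 library other than replicate 4 of ZT6 and replicate 3 of ZT12 (adjusted p from 0.063 to 0.11), and Rps18 without any 1 library other than replicate 4 of ZT6 and replicate 3 of ZT12 (adjusted p from 0.053 to 0.12). The median log2 fold change of the cytosolic ribosome list was 0.15, against 0.01 over all tested genes, with 76 of 81 members above 0. At an unadjusted p under 0.05, 18 members were higher and 0 lower, while 22.1% of all tested genes reached it in either direction. In the mitochondrial ribosome list 59 of 77 were above 0, with 9 higher and 2 lower at an unadjusted p under 0.05. None of 22 immediate early genes passed edgeR's test, while 1 was lower at an unadjusted p under 0.05 and by DESeq2. Klf6, the one of highest level, stood at 0.19 (SE 0.15, adjusted p = 0.49) on the log2 scale. With the cosine beside lane Klf6 was called higher (adjusted p = 0.030). The cold-inducible Rbm3 had a log2 fold change of 0.27 (SE 0.12, adjusted p = 0.18). Of 25 nuclear receptors and adipose factors, a list with 8% called, the Kruppel-like factor Klf13 rose, with 65.8, 72.9, 66.0 and 63.8 CPM at ZT6 and 109, 128, 112 and 124 CPM at ZT12, without overlap and by 0.82 (SE 0.13, adjusted p = 0.00023), and in the cosine beside lane its sign was the other (-0.28). Its relative Klf3, a repressor, fell by 0.25 (SE 0.08, adjusted p = 0.036), lost without any 1 library other than replicate 2 of ZT6 and replicate 4 of ZT12 (adjusted p from 0.056 to 0.13).

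**Figure D3:**
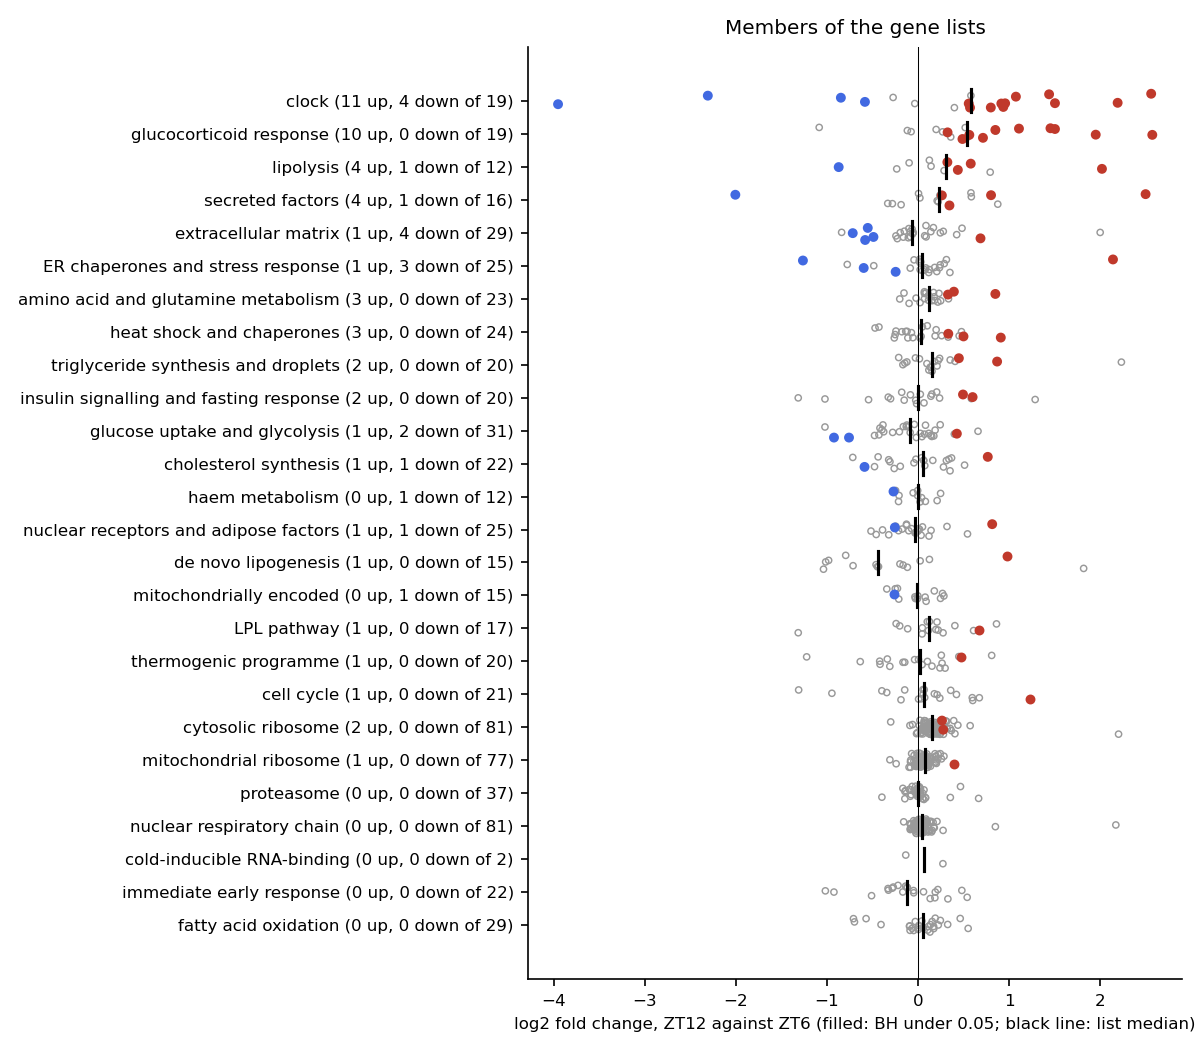
Each point is 1 tested member of a gene list, placed by its log2 fold change, ZT12 against ZT6, with filled points for BH under 0.05 (red higher, blue lower) and a black line at the median of the list. The clock list holds 15 filled points of 19 and the glucocorticoid list 10 of 19, while the lists of the respiratory chain, proteasome, immediate early genes and fatty acid oxidation hold none.

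The widest rises outside the lists belonged to genes of low to middling level. Cyp2b10 (chr7:25897620-25926624), a cytochrome of a family with similar members, had the highest log2 fold change of the named genes, 2.69 (SE 0.66, adjusted p = 0.012), with 1.19, 0.828, 1.91 and 2.95 CPM at ZT6 and 3.72, 11.3, 11.0 and 18.7 CPM at ZT12. Its groups were close at their edges but did not overlap. It did not follow the usual course, since the ZT9 mean was still 1.93 CPM. Cyp2f2, another cytochrome, rose by 2.28 (SE 0.51, adjusted p = 0.0059) and was at 8.27 ± 4.33 CPM (SD, n = 4) by ZT9. Mthfd1l (chr10:3973118-4167081), an enzyme of mitochondrial one-carbon metabolism, was at 0.239, 0.414, 0.449 and 0.334 CPM at ZT6 and at 1.38, 1.92, 2.19 and 2.19 CPM at ZT12. All ZT12 mice were far above the highest ZT6 mouse, and the log2 fold change was 2.39 (SE 0.38, adjusted p = 0.00018), against 0.53 and no call with the cosine beside lane. The kinase gene Ripk4 rose by 1.91 (SE 0.44, adjusted p = 0.0072). The noncoding genes Gm48832 and Gm13091 rose by 2.56 (SE 0.44, adjusted p = 0.00052) and 1.93 (SE 0.52, adjusted p = 0.019). Gm13091 is annotated as antisense, whether the counting used strand is not stated, and its call was lost without replicate 3 or 4 of ZT6 or replicate 1 or 4 of ZT12 (adjusted p from 0.053 to 0.073). Without the libraries rich in muscle transcripts Cyp2b10 (adjusted p = 0.14), Cyp2f2 (0.052) and Ripk4 (0.15) did not pass, and the cosine beside lane gave 0.27 for Cyp2b10, 0.43 for Ripk4 and 0.066 for Gm48832 and turned the sign of Cyp2f2 (-0.025) and Gm13091 (-0.61).

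Among non-overlapping genes that averaged 1 CPM or more over the 8 libraries, which leaves out Npas2, the lowest fitted log2 fold changes were those of Gm26870, Tmem132b, Gm10800, Trim66 and Glt1d1. These 5, Mthfd1l, Gm36595 and Fgf9 entered the test through the filter by time point and were left out by a filter without groups. The rank of these 5 therefore depends on the filter by time point. Tmem132b (chr5:125531774-125792583), a membrane protein gene, had 8.30, 7.69, 6.34 and 1.17 CPM at ZT6 and 0.300, 0.291, 0.850 and 0.822 CPM at ZT12. Replicate 4 of ZT6 was close to the ZT12 mice and the other 3 far above, and the log2 fold change was -3.35 (SE 0.61, adjusted p = 0.00092). Trim66 and Glt1d1, a glycosyltransferase-like gene, fell by 2.45 (SE 0.39, adjusted p = 0.00021) and 2.31 (SE 0.55, adjusted p = 0.0087). Dtx4 (chr19:12466338-12501454), a ubiquitin ligase gene, had the smallest p among the named genes. Its mice had 11.7, 12.0, 17.7 and 17.7 CPM at ZT6 and 4.68, 5.00, 4.19 and 4.00 CPM at ZT12. At ZT6 a pair of mice lay lower and a pair higher, all above the compact ZT12 group, with a log2 fold change of -1.73 (SE 0.15, adjusted p = 5.8e-08), and all 12 libraries of lane 3 lay below those of lane 2. Among receptor genes of hormones, Vdr of vitamin D fell by 1.90 (SE 0.28, adjusted p = 0.00011) and Tshr of thyrotropin by 1.60 (SE 0.27, adjusted p = 0.00034) on the log2 scale. Rgs9bp, an anchor of a G-protein regulator, and the noncoding Gm36595 fell by 2.09 (SE 0.35, adjusted p = 0.00031) and 1.90 (SE 0.35, adjusted p = 0.0010). The adjusted p without the libraries rich in muscle transcripts was 0.05017 for Tmem132b, 0.061 for Glt1d1 and 0.063 for Tshr.

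In CPM, a scale that also grows with transcript length, the largest rises among non-overlapping genes past the threshold were those of Lpl, Car3, Glul, Dgat2 and Pnpla2. Car3, a carbonic anhydrase abundant in adipocytes, had 3681, 4687, 4717 and 5979 CPM at ZT6 and 6714, 6568, 6362 and 6565 CPM at ZT12. The ZT12 mice were almost level, above a wider ZT6 group, with a log2 fold change of 0.46 (SE 0.11, adjusted p = 0.0080). The largest falls in CPM among such genes, beside mt-Nd1, Pfkfb3 and Col4a1, were those of Slc16a1 and Anxa2. Slc16a1, the carrier of lactate and pyruvate, went from 311, 274, 364 and 355 CPM to 251, 174, 160.1 and 169 CPM. Replicate 1 was the highest of ZT12 and still below ZT6 (log2 fold change -0.79, SE 0.20, adjusted p = 0.014). Anxa2, a membrane-binding annexin, fell from 301, 274, 223 and 149 CPM to 115, 107, 125 and 138 CPM. Replicate 4 of ZT6 was near the ZT12 range, and the log2 fold change was -0.97 (SE 0.19, adjusted p = 0.0016), of the other sign in the cosine beside lane (0.11). Car3 (0.098), Slc16a1 (0.17) and Anxa2 (0.090) had an adjusted p above 0.05 without the libraries rich in muscle transcripts.

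**Figure D4:**
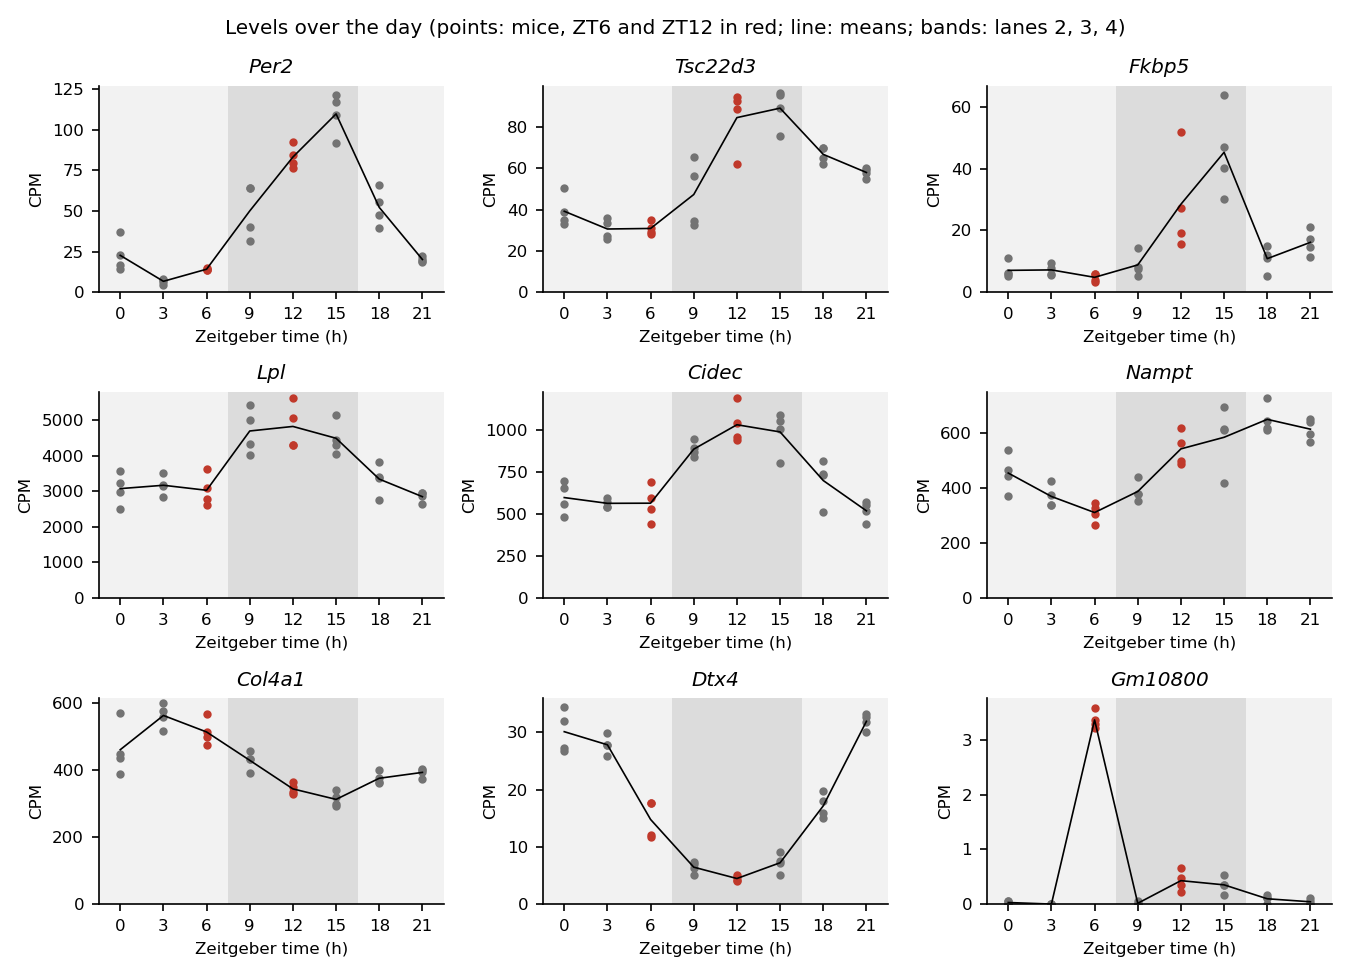
Levels in CPM are plotted against Zeitgeber time in hours for 9 genes, with each mouse as a point (ZT6 and ZT12 in red), the means joined by a line, and shaded bands for lanes 2, 3 and 4. Lpl is near its ZT12 level by ZT9, the first time point of lane 3, Fkbp5 and Tsc22d3 rise more between ZT9 and ZT12, and Gm10800 is high at ZT6 alone.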

How the data were processed

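RNA of iBAT was sequenced as stranded paired-end libraries, 1 per mouse. Per the study's methods and the submitters' processing notes, the authors mapped reads to mm10 with GSNAP and counted reads per Ensembl gene with HTSeq (version 0.6.1). Whether counting used strand is not given in the sources used here. The deposited values are raw counts for 50686 genes in 32 libraries, of which 20100 genes had no count. A symbol was found for 50376 identifiers in GENCODE vM21, which also gave coordinates and is not the annotation the authors counted with.

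Genes were filtered with filterByExpr by time point in edgeR (version 4.0.16, R 4.3.3), which left 15505 genes with 99.9% of counts. Counts were scaled with TMM factors and printed as CPM, counts scaled to a common library total. A quasi-likelihood model was fitted to all 32 libraries with the 8 time points as groups, and the contrast ZT12 minus ZT6 was tested two-sided with BH adjustment at 0.05. The 24 other libraries entered the filter, the scaling and the estimate of the spread. Errors are SD over 4 mice or SE of the log2 fold change. Named are the 12 highest and 12 lowest log2 fold changes among genes past the threshold with at least 1 CPM and no overlap of mice, the 5 largest rises and falls in CPM, up to 4 members of each of 26 lists by p (where none passed, the one with the highest level), and Lpl, Angptl4 and Ucp1. Other members of the lists, the other clock and glucocorticoid genes included, were named after their values were seen. The comparison, the lists and the rule were chosen with earlier results of these data known. Cell type markers (9 lists) served as checks. Libraries with a muscle sum over 10 times the median of the 8 were left out in an added alternative. The script was tested on simulated data. Over genes, replicates differed by far more than counting noise, so none was counted as a duplicate. Alternatives also used DESeq2 (version 1.42.0). A floor of 3 counts was 0.170 to 0.184 CPM per library, which covers counting error only. Promoters and motifs are from RefSeq, which matched 54 of 77 named genes. Some members counted in the lists are not reported here by name.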

Additional observations from a re-analysis of the deposited data

Results flagged for a closer look

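In 11 of 176 groups of 4 mice examined (the 77 named genes, the 9 marker sums, the total count and the mitochondrial share at either time point), 1 mouse stood apart from the other 3 by Dixon's criterion at the 95% level, a rate near the 1 in 20 that chance gives. At ZT6 these were the summed muscle markers in replicate 2 (2166 CPM, the others 57.1 to 62.5), Vdr in replicate 4 (3.34 CPM, the others 2.63 to 2.75), Esrrg in replicate 1 (22.6 CPM, the others 28.3 to 28.9), Trib3 in replicate 3 (14.0 CPM, the others 10.6 to 11.2) and Col4a2 in replicate 4 (361 CPM, the others 288 to 294). At ZT12 they were Slc16a1 (251 CPM, the others 160.1 to 174), Tsc22d3 (62.2 CPM, the others 88.9 to 94.4) and Ivd (403 CPM, the others 374 to 377) in replicate 1, the summed white adipocyte markers in replicate 2 (199 CPM, the others 288 to 291), and Lamb1 (115 CPM, the others 82.6 to 87.9) and Rpl3 (63.9 CPM, the others 72.8 to 73.9) in replicate 3.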

How the results depend on the processing

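The total of 1197 genes (562 higher, 635 lower) kept within 1.5 times its value with DESeq2 size factors, library size alone, mitochondrially encoded genes removed, no filter, a filter without groups, DESeq2's Wald test and the summed muscle markers as a covariate. The 8 libraries alone gave 780 genes (370 higher, 410 lower), the test against 1.5-fold 32 (16 each way), the 24 h cosine beside lane 231 (102 higher, 129 lower) and the fit without the 3 libraries rich in muscle transcripts 310 (155 each way). Leaving out 1 library in turn gave 711 to 1231 genes, 321 to 603 higher and 352 to 631 lower. Fewer samples or a larger fold to pass were part of these alternatives, other than the cosine, for which the cause was not tested. With the replicate number as a block 1131 genes passed. The number was not taken to pair the mice, since 1 of the 4 correlations between same-numbered mice of ZT6 and ZT12 was negative (0.26, 0.66, -0.20 and 0.37), while replicates 1, 2 and 4 of ZT6 were each closest to the ZT12 mouse of their own number and replicate 3 to replicate 4 (0.36). Of 77 named genes 69 were past the threshold, 28 of them in all 18 alternatives other than the 1.5-fold test and the cosine, and 11 in the cosine. The filter without groups left out 8 of the 77 (Mthfd1l, Tmem132b, Trim66, Glt1d1, Gm36595, Fgf9, Gm10800 and Gm26870), and mt-Nd1 was among the mitochondrially encoded genes removed. The cosine beside lane turned the sign of the log2 difference for Gm26870 (9.34) and Gm10800 (10.84), fitted over groups at or near 0 and so no measure of size, and for Zbtb16 (-2.02), Ucp1 (-0.73), Gm13091 (-0.61), Klf9 (-0.44), Acsl1 (-0.31), Klf13 (-0.28), Esrrg (-0.28), Foxo1 (-0.20), Akt1 (-0.11), Anxa2 (0.11), Cyp2f2 (-0.025), Chac1 (-0.018) and Ivd (-0.0070). Ucp1 also turned without replicate 1 (-0.030) or 2 (-0.10) of ZT6, without replicate 1 (-0.25) or 2 (-0.062) of ZT12 and without the muscle-rich libraries (-0.051), as did Atp5b in the last (-0.0046) and Psmd8 without replicate 3 of ZT6 (0.00074). Over the fits without 1 library Psmd8 ran from -0.054 to 0.00074 and Ucp1 from -0.25 to 0.26.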

Other observations

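Gm10800 and Gm26870, predicted genes in stretches of repeated sequence where reads can have several places, were seen at ZT6 and hardly elsewhere. Gm10800 (chr2:98666547-98667301) had 3.22, 3.37, 3.59 and 3.29 CPM in the mice of ZT6, and the means of the other time points were 0.0288 CPM at ZT0, 0 at ZT3, 0.0146 at ZT9, 0.429 at ZT12, 0.352 at ZT15, 0.0971 at ZT18 and 0.0420 at ZT21. Gm26870 (chr9:3000282-3038313) had 2.57, 3.49, 3.70 and 2.12 CPM at ZT6, 0.0437 at ZT0 and 0 at ZT3. ZT0 and ZT3 shared lane 2 with ZT6, and their mice were at or near 0 for both genes. The mice of ZT12 had 0.661, 0.349, 0.486 and 0.219 CPM of Gm10800 and 0.300, 0.116, 0.121 and 0.329 CPM of Gm26870, of which replicates 2 and 3 were under the level of 3 counts. Both genes passed the filter on low counts only through ZT6, where they were high, so no fold or p of the direct comparison is given for them.

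Some genes that rose from ZT6 to ZT12 were high at another time as well. Cyp2b10 averaged 22.7 CPM at ZT0, 1.72 at ZT6, 11.2 at ZT12, 26.4 at ZT15 and 6.64 at ZT18. Zbtb16 averaged 33.1 CPM at ZT3, 38.3 at ZT12 and 67.4 at ZT21, with 9.89 at ZT6 and 13.8 at ZT18. Hspa8 was at 803 ± 145 CPM (SD, n = 4) at ZT18 and 727 ± 167 at ZT0, against 335 ± 52.7 at ZT12. No test was run on these time courses here.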
